A study of Mus musculus with 40 samples.

Results

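The genes described here are 10 genes of the contractile apparatus of smooth muscle and myofibroblasts: the actins Acta2 and Actg2, the actin-binding proteins Tagln, Cnn1, Lmod1 and Synpo2, the myosin chains Myh11 and Myl9, the kinase Mylk and the intermediate filament protein Des. They were taken by symbol from the 45706 genes of the deposited tables, and all 10 were found in each of 40 RNA-seq libraries. The libraries form 10 groups of 4 and come from cells sorted by flow cytometry from mouse colon, colon tumors and blood. Tumor-bearing mice carried the Cdx2CreERT2 and Apc fl/fl alleles on a C57Bl6/Sv129 background and had received 1 intraperitoneal injection of Tamoxifen at 25 mg/kg body weight at 8 to 10 weeks of age according to the labels, whereas healthy mice were C57Bl6 with neither transgene nor agent. The strain entry counts upward from one tumor-bearing sample to the next and was read as its first value, and the methods give a wider span of ages at injection than the labels. Age at harvest was not given in the sources used here. Because the Cdx2 promoter drives Cre in the colon epithelium, stromal cells and leukocytes of tumor-bearing mice were not its target. Each comparison of tumor-bearing with healthy mice, in tissue or in blood, also compares different strains, genotypes and Tamoxifen with no agent, and these cannot be told apart.

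Stromal cells were sorted as CD45- EpCAM- cells and epithelial cells as CD45- EpCAM+ cells, each from tumors and from healthy colon. Neutrophils (Ly6G+ Ly6Clow) and monocytes (Ly6G- Ly6Chigh), both CD45+ CD11b+ MHCII-, came from tumors, from the blood of tumor-bearing mice and from the blood of healthy mice. The stromal gate is defined by the absence of 2 surface proteins, so that it takes in fibroblasts, smooth muscle cells, pericytes, endothelial cells and glia together, and tissue was digested with collagenase and Dispase before the sort. Some titles name 2 animals. Others share an animal across groups: 2 tumor-bearing mice and 1 healthy mouse gave both stromal and epithelial libraries, and some gave both tumor and blood cells. Nothing else says that the libraries of a group are separate cultures or litters, so p-values measure the spread between these libraries.

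Smooth muscle contracts when calcium and calmodulin activate myosin light chain kinase, which phosphorylates the regulatory light chain and lets myosin pull on actin filaments. In the colon these proteins are abundant in the muscle layers, in the muscularis mucosae, in vessel walls, and in the myofibroblasts that lie beneath the crypts. Many of their genes carry CArG boxes, short A/T-rich sites bound by serum response factor (Srf) together with its partners myocardin (Myocd) and the myocardin-related factors (Mrtfa, Mrtfb).

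Promoter windows from RefSeq (build GRCm38.p6), which run from 250 bases before to 50 bases after a gene's start, were present for 7 of the 10 genes. They are shown because many genes of this apparatus carry CArG boxes. A CArG box with a pure A/T core stood in 1 of these 7 windows, that of Myl9, and in 1.63% of the 32851 windows of the table. With 1 other base allowed in the core, a search chosen after the strict one had been seen, it stood in the windows of Myl9 and Acta2 and in 9.98% of all windows. Both strands read the same for this motif. The Myl9 stretch below is chr2:156775214-156775419 on the plus strand, and the capitals mark its 2 boxes, the first strict and the second relaxed. The 2 Acta2 stretches are chr19:34255438-34255467 and chr19:34255388-34255417, on the minus strand, with relaxed boxes in capitals. Both precede the RefSeq start but lie within an exon of Acta2 in the GENCODE annotation, whose gene starts further upstream. The Lmod1 stretch, chr1:135324563-135324806 on the plus strand, is shown for contrast, because Lmod1 had the largest difference between tumor and healthy stroma and no box of either kind lay in its window. These matches describe letters in a window and not bound sites.
Myl9: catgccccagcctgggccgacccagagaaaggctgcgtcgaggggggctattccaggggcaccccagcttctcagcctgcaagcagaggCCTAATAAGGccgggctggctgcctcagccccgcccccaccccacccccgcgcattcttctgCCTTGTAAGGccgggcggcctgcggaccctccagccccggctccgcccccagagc
Acta2, first: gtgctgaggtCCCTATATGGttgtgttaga
Acta2, second: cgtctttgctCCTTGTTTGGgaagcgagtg
Lmod1: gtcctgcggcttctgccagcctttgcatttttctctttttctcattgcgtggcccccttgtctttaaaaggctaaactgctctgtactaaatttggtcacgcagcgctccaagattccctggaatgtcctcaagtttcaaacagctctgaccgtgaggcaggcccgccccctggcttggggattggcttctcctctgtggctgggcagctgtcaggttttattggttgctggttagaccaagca

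Libraries held between 10717873 and 38002939 counts on genes (median 16338416), of which mitochondrially encoded genes took between 5.34% and 83.9%. A pair of features of the stromal libraries touch the results below. The first is epithelial RNA in the tumor stroma: relative to the mean of the tumor epithelium, the median level of 11 epithelial markers was 94.0%, 47.6%, 19.7% and 12.1% in tumor stromal replicates 1 to 4, against 0.144% to 11.5% in healthy stroma. The second is the mitochondrial share, 24.8% to 62.9% in tumor stroma and 15.6% to 24.9% in healthy stroma. The CD45- gate was also not free of leukocyte RNA: 10 leukocyte markers summed to 147, 56.3, 1362 and 545 RPKM (reads per kilobase of gene, scaled for library depth) in tumor stromal replicates 1 to 4 and to 13.1 to 51.6 RPKM in healthy stroma. Among healthy epithelial libraries, replicate 4 held 83.9% mitochondrial counts, against 48.6% to 67.4% in the others. Its epithelial marker level was 24.4%, against 102% to 189%. Rescaling its RPKM to counts on nuclear genes took a factor of 4.26, against 1.61 to 2.00 in the others.

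Across the 10 groups, all 10 genes had their highest mean in healthy stroma. On the deposited RPKM scale, which is per length and allows genes to be set side by side, the order of mean levels in healthy stroma began with Acta2 (20.7 ± 14 RPKM, SD, n = 4), Myh11 (16.3 ± 18) and Myl9 (12.2 ± 9.2). Tagln (6.0 ± 4.7), Mylk (5.99 ± 3.0) and Actg2 (5.54 ± 2.4) followed, and Synpo2 (2.01 ± 0.68), Des (1.91 ± 1.1), Cnn1 (1.45 ± 0.76) and Lmod1 (1.3 ± 1.0) were lowest. Neighbours in this order overlapped widely. For 9 of the 10 genes the 4 healthy stromal libraries did not overlap those of the group ranked next. Myl9 was the exception, with 5.58 to 25.8 RPKM in healthy stroma and 6.57 to 14.3 RPKM in the tumor epithelium. When RPKM was rescaled to counts on nuclear genes alone, 9 of 10 genes remained highest in healthy stroma and Myl9 did not, and the same exception arose without healthy stromal replicate 1.

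**Figure D1:**
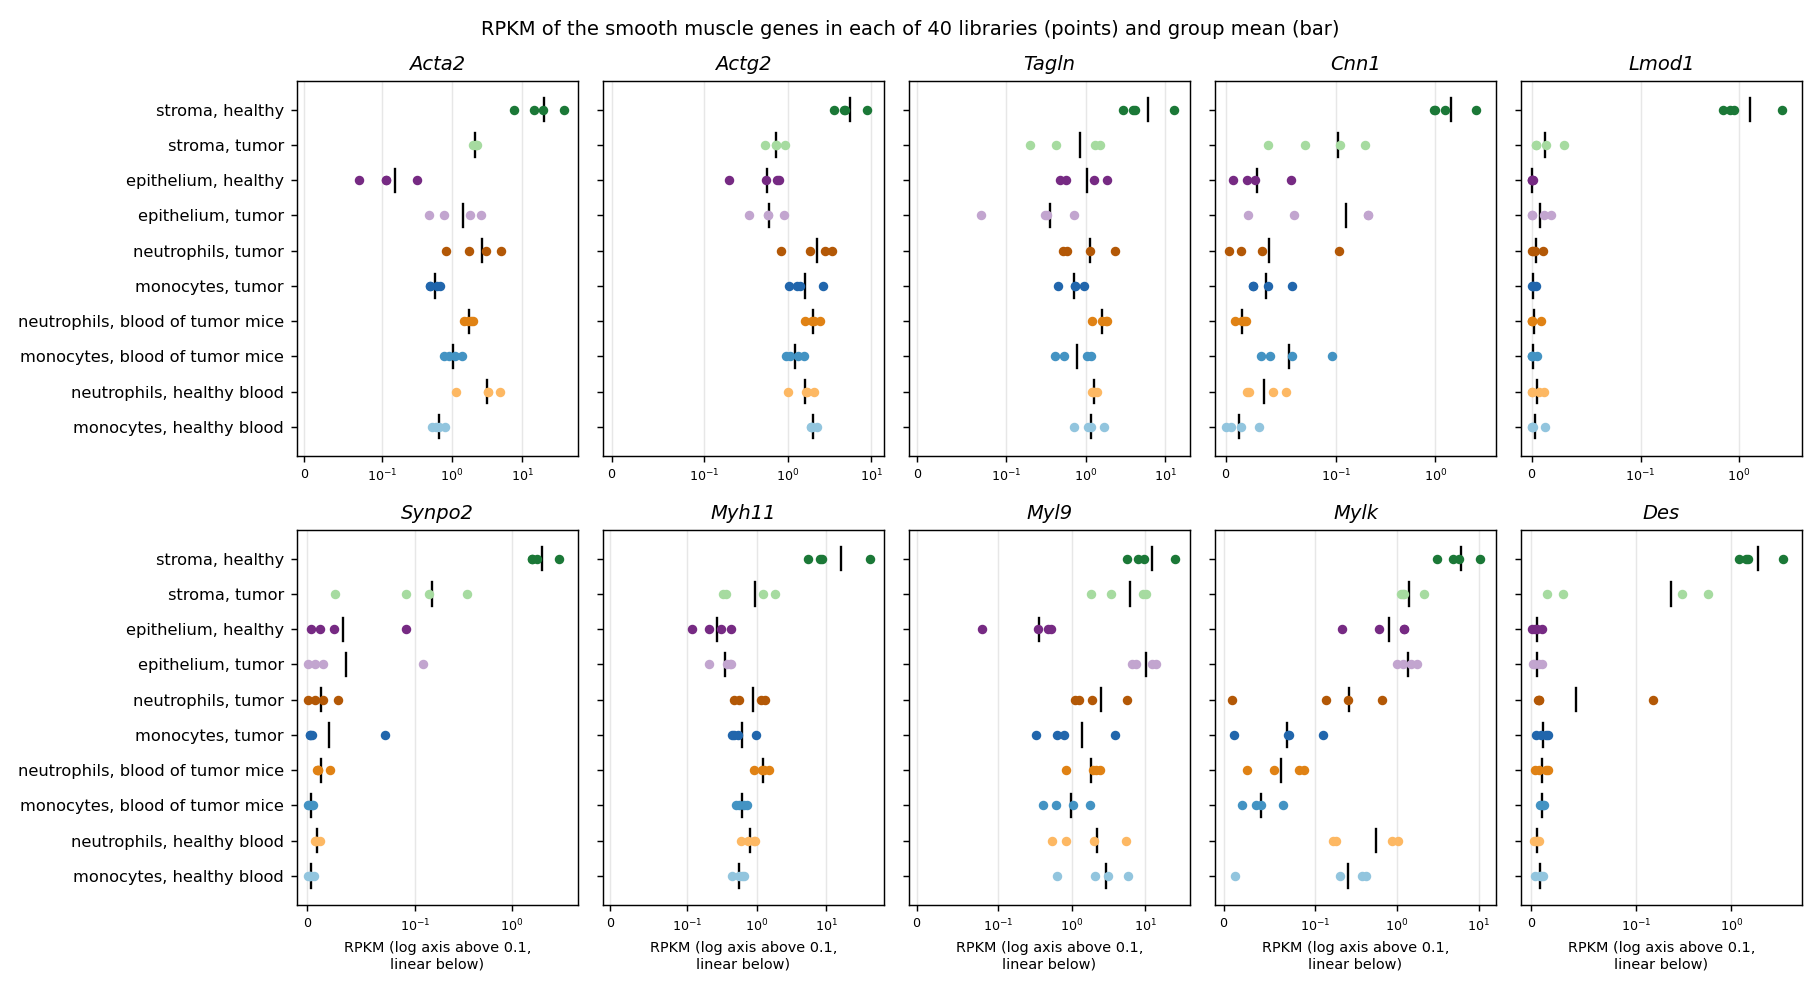
RPKM of each gene (horizontal axis, logarithmic above 0.1 and linear below) in each of the 40 libraries, with 1 row per group; points are libraries and the bar is the group mean. The 4 healthy stromal libraries lie to the right of the other groups in every panel but Myl9, where tumor epithelium reaches 14.3 RPKM.

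Below healthy stroma the order of groups differed between genes. Des, a muscle intermediate filament, Synpo2, which crosslinks actin at dense bodies, and Lmod1, which nucleates actin filaments, came next in tumor stroma, at 0.231 ± 0.27, 0.15 ± 0.14 and 0.0128 ± 0.012 RPKM (n = 4), and their ranges there overlapped the group ranked after it. Cnn1 (calponin), which restrains actomyosin, was at 0.126 ± 0.099 RPKM in tumor epithelium and 0.104 ± 0.067 RPKM in tumor stroma, and these overlapped. Acta2 came next in neutrophils, at 3.13 ± 1.5 RPKM in healthy blood and 2.66 ± 1.8 RPKM in tumors, before tumor stroma at 2.15 ± 0.11 RPKM. Actg2 was likewise at 2.23 ± 1.1 RPKM in tumor neutrophils and 2.03 ± 0.36 RPKM in blood neutrophils of tumor-bearing mice, above its level in tumor stroma (0.722 ± 0.16 RPKM), but its values outside the stroma followed those of Actb, as given with the paralogs.

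The first comparison asks how stromal cells of tumors differ from those of healthy colon. Of the 10 genes, 7 fell in tumor stroma (edgeR quasi-likelihood test with Benjamini-Hochberg adjustment over all genes, adjusted p below 0.05 and a log2 fold change beyond 1.5), and 0 rose. Over all 19081 genes tested, 5.01% were called lower, 3.39% higher and 8.4% in either direction. The median log2 difference of the 10 genes was −2.82, beside 0.03 for all genes tested. Lmod1 passed the filter on low counts through healthy stroma alone, where it is high, and among the other 9 genes 6 were called. Des, which was not called, also needed the healthy libraries to pass. It was below the filter between stroma and epithelium of tumors. In sorted bulk samples, fewer cells of a type and less RNA per cell cannot be told apart.

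The actins fell together. Acta2, smooth muscle alpha-actin and the usual marker of myofibroblasts, was at 39.9, 20.2, 15.0 and 7.73 RPKM in healthy stromal replicates 1 to 4 and at 1.99, 2.16, 2.19 and 2.25 RPKM in tumor stromal replicates 1 to 4. The groups did not overlap, and the tumor values lay within a narrow band while the healthy ones spread widely. The fitted difference was −2.88 on the log2 scale (SE 0.46, edgeR adjusted p = 0.0086), 7.36-fold lower. Actg2, the gamma-actin of visceral muscle, was at 9.02, 4.72, 4.89 and 3.54 RPKM in healthy stroma and 0.715, 0.531, 0.719 and 0.925 RPKM in tumor stroma. It fell by 2.57 on the log2 scale (SE 0.35, edgeR adjusted p = 0.0054), again with no overlap.

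Among the actin-binding proteins, Lmod1 showed the largest difference. It was at 2.80, 0.906, 0.694 and 0.812 RPKM in healthy stroma and at 0.00443, 0.00368, 0.0136 and 0.0295 RPKM in tumor stroma, where 0.95 to 6.49 expected counts stood behind each value. The log2 difference was −6.37 (SE 0.78, edgeR adjusted p = 0.0047), and at so few counts its size carries the largest counting error of the set. Cnn1 was at 2.58, 1.25, 0.981 and 0.993 RPKM in healthy and 0.111, 0.0716, 0.0380 and 0.194 RPKM in tumor stroma, a log2 difference of −3.44 (SE 0.61, edgeR adjusted p = 0.012). Synpo2 was at 3.01, 1.59, 1.82 and 1.61 RPKM in healthy and 0.0259, 0.0912, 0.341 and 0.140 RPKM in tumor stroma, a log2 difference of −3.42 (SE 0.66, edgeR adjusted p = 0.016). For all 3 genes every tumor library lay below every healthy library. Tagln (transgelin), an actin crosslinker, was at 12.9, 2.92, 4.21 and 3.96 RPKM in healthy and 0.423, 0.201, 1.52 and 1.3 RPKM in tumor stroma. These values did not overlap either, but the log2 difference of −2.47 (SE 0.68) did not pass the adjusted threshold (edgeR adjusted p = 0.055).

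In the motor, the heavy chain was called lower and the light chain was not called. Whether their changes differ was not tested. Myh11, the smooth muscle myosin heavy chain, was at 42.9, 8.07, 8.80 and 5.49 RPKM in healthy and 0.360, 0.328, 1.82 and 1.23 RPKM in tumor stroma. Its log2 difference was −3.79 (SE 0.82, edgeR adjusted p = 0.025), 13.8-fold lower, and this call was lost without tumor stromal replicate 1 (adjusted p = 0.057) or 2 (adjusted p = 0.059). Mylk, the kinase that activates the motor, was at 10.3, 4.87, 5.75 and 3.10 RPKM in healthy and 1.11, 1.21, 2.16 and 1.20 RPKM in tumor stroma. Its log2 difference was −1.71 (SE 0.37, edgeR adjusted p = 0.025), close to the fold threshold, and it was lost in 5 of 8 fits that left out 1 library. Myl9, the regulatory light chain, was at 25.8, 5.58, 9.71 and 7.87 RPKM in healthy and 10.3, 9.34, 3.41 and 1.84 RPKM in tumor stroma. Here the groups overlapped through tumor replicates 1 and 2, the libraries richest in epithelial RNA, while tumor replicates 3 and 4 lay below every healthy library. The log2 difference of Myl9 was −0.52 (SE 0.65, edgeR adjusted p = 0.67), turning to 0.05 without healthy stromal replicate 1. Its value without tumor replicates 1 and 2 is given below. Des was at 3.53, 1.43, 1.49 and 1.21 RPKM in healthy and 0.0300, 0.0152, 0.576 and 0.303 RPKM in tumor stroma, with no overlap but a difference of −2.75 (SE 0.95) that did not pass (edgeR adjusted p = 0.11).

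**Figure D2:**
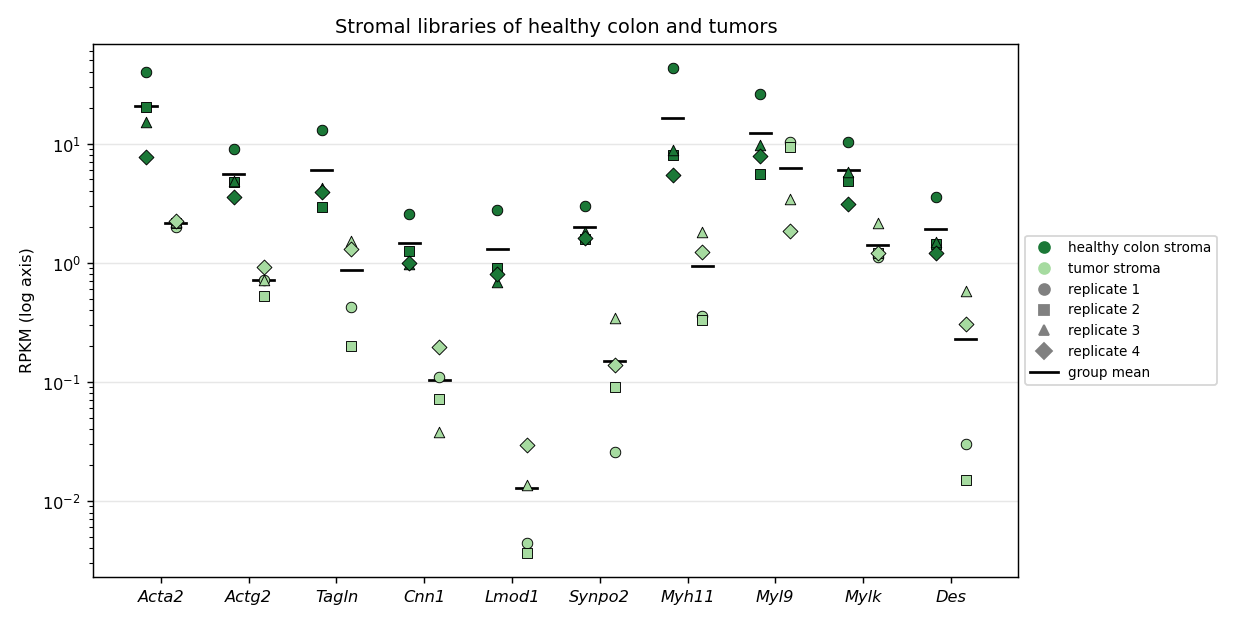
RPKM (vertical logarithmic axis) of each gene in the 4 healthy and 4 tumor stromal libraries; symbols mark the replicate and horizontal bars the group mean. Healthy replicate 1 is the highest library for every gene, and only Myl9 has overlapping groups.

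Marker lists moved beside these genes. In tumor stroma, 9 of 10 fibroblast markers fell (median log2 difference −4.91), from summed levels of 533 to 2760 RPKM to levels of 7.30 to 26.9 RPKM. Of 10 markers of activated fibroblasts 6 fell, and of 7 markers of glia and pacemaker cells 3 fell. Of 8 pericyte markers and 10 endothelial markers 0 passed by edgeR. At an unadjusted p below 0.05 the pericyte list had 2 and the endothelial list 0, and limma-voom and DESeq2 called the same numbers, 2 and 0. Both lists split the tumor libraries: pericyte markers summed to 2.03, 3.46, 47.7 and 45.1 RPKM in tumor stromal replicates 1 to 4 and endothelial markers to 5.12, 4.23, 140 and 150 RPKM, while in healthy stroma they ranged over 33.6 to 99.3 and 29.4 to 167 RPKM. Of 11 epithelial markers 4 rose and of 10 leukocyte markers 3 rose. The part of these cell types in the lower contractile genes was not tested. The 9 genes other than Myl9 summed to 4.77, 4.62, 9.38 and 7.58 RPKM in tumor stromal replicates 1 to 4 and to 28.4 to 127 RPKM in healthy stroma.

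With tumor stromal replicates 1 and 2 left out, the 2 libraries richest in epithelial RNA, 4 of the 10 genes were called, all lower. Of all genes 5.73% were called in either direction. The 4 genes were Acta2 (−2.93), Actg2 (−2.46), Lmod1 (−5.71) and Synpo2 (−2.78), and Cnn1 was at −3.34 (edgeR adjusted p = 0.060). Lmod1 passed the filter through healthy stroma, where it is high, so its value is a description, which leaves Acta2, Actg2 and Synpo2. All 10 log2 differences were negative in that fit. With the level of epithelial markers as a covariate, all 10 remained negative but only Lmod1 passed (−5.29, edgeR adjusted p = 0.025), with the same limit. Epithelial levels did not overlap between tumor stroma (12.1% to 94.0%) and healthy stroma (0.144% to 11.5%). The covariate fit therefore separates epithelial level from group poorly, and lost calls or changed signs in it are hard to read. Myl9 moved most in the fit without the 2 libraries and in the covariate fit, to −1.92 (edgeR adjusted p = 0.14) and −2.30 (edgeR adjusted p = 0.51).

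The wider contractile apparatus was read from a list of 50 further genes, of which 48 were tested in the stroma. Of these 11 fell and 1 rose, with a median log2 difference of −1.08. Between stroma and epithelium of tumors 42 of the 50 were tested, so some of the 48 passed the filter through healthy stroma. Of those that fell, Myocd, Itga8, Kcnma1 and Kcnmb1 had tumor stromal means of 0.0268, 0.0237, 0.0439 and 0.0434 RPKM. Whether they passed through healthy stroma alone was not checked, and their calls carry that limit. Of the roles given here, 3 of 15 thin filament and actin-binding genes fell, 3 of 7 intermediate filament and membrane anchor genes, 2 of 7 transcriptional regulators and 2 of 11 channels, receptors and calcium handling genes. Among filament genes, Tpm2, the beta-tropomyosin that lies along actin, fell from 8.81 ± 5.8 to 0.527 ± 0.16 RPKM (n = 4 each). Its log2 difference was −3.65 (SE 0.48, edgeR adjusted p = 0.0053). Fhl1, a LIM domain protein of muscle, fell from 29.98 ± 11 to 1.31 ± 0.97 RPKM, and Cald1 (caldesmon), which holds myosin off actin, from 12.2 ± 4.9 to 2.84 ± 1.1 RPKM. The log2 differences of these 2 genes were −4.20 and −1.75.

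Most genes of filament anchors and of channels did not pass, and those that fell are named here. Dmd (dystrophin), which links actin to the membrane, differed by −2.51 on the log2 scale, Synm (synemin), a partner of desmin, by −2.20, and the integrin gene Itga8 by −4.47. The 2 chains of the large-conductance potassium channel that relaxes smooth muscle, Kcnma1 and Kcnmb1, differed by −3.03 and −3.48. Ppp1r12b, a targeting subunit of myosin phosphatase, differed by −2.06. Itga8 and Synm passed narrowly, with edgeR adjusted p-values of 0.038 and 0.044. Without the 2 epithelium-rich libraries, Tpm2, Fhl1 and Tgfb1i1 were still called and the other 9 were not.

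Among regulators of this programme, the coactivator that is itself restricted to muscle was called lower and its DNA-binding partner was not called. Whether their changes differ was not tested. Myocd was at 0.592 ± 0.43 RPKM in healthy and 0.0268 ± 0.038 RPKM in tumor stroma (n = 4 each), a log2 difference of −4.12 (SE 1.00, edgeR adjusted p = 0.036). The limit on genes of low level in tumor stroma, given with the wider list, applies to this call. Tgfb1i1 (Hic-5), a focal adhesion protein and coactivator, was at 9.68 ± 1.0 and 1.41 ± 1.2 RPKM, a log2 difference of −2.47 (SE 0.61, edgeR adjusted p = 0.037). Over 19 recomputed fits the call of Myocd was lost in 10 and that of Tgfb1i1 in 8, and both kept their direction. Srf itself was at 4.37 ± 0.27 RPKM in healthy and 5.61 ± 3.6 RPKM in tumor stroma and did not pass (0.76, SE 0.46, edgeR adjusted p = 0.35). The log2 difference of Srf turned to −0.41 without the 2 epithelium-rich libraries and to −0.88 (SE 0.95) with the epithelial covariate. The limit of the covariate fit given above applies to this value and to those below. The myocardin-related factors Mrtfa (−0.55, adjusted p = 0.22) and Mrtfb (−0.37, adjusted p = 0.63) did not pass, and Mrtfb turned to 0.17 and 1.02 in those 2 fits. Gata6, a transcription factor of both muscle and gut epithelium, was the gene that rose, by 2.64 (SE 0.67, edgeR adjusted p = 0.041), and with the epithelial covariate its difference was −0.18.

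The second comparison asks the same of epithelial cells. Here 7 of the 10 genes passed the filter on low counts and 3 were called, beside 15.4% of all 16085 genes tested (7.52% higher and 7.88% lower): Myl9 and Acta2 rose in the tumor epithelium and Tagln fell. The median log2 difference of the 7 genes was −0.26, and that of all genes −0.01. Myl9 was at 0.471, 0.529, 0.346 and 0.0799 RPKM in healthy epithelial replicates 1 to 4 and at 7.55, 6.57, 14.3 and 12.5 RPKM in tumor epithelial replicates 1 to 4. The tumor values were far above the healthy ones in each library, with a log2 difference of 4.27 (SE 0.31, edgeR adjusted p = 2.0e-05), 19.4-fold higher. It was called in each of the 8 fits that left out 1 library.

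Acta2 was at 0.314, 0.112, 0.115 and 0.0703 RPKM in healthy and 0.769, 0.469, 2.63 and 1.78 RPKM in tumor epithelium. All tumor values lay above all healthy values, with a log2 difference of 2.32 (SE 0.63, edgeR adjusted p = 0.023). Tagln was at 0.475, 1.83, 1.26 and 0.571 RPKM in healthy and 0.324, 0.0718, 0.313 and 0.724 RPKM in tumor epithelium. These overlapped in tumor replicate 4, with a log2 difference of −2.28 (SE 0.66, edgeR adjusted p = 0.031). With 1 library left out, the call of Acta2 was lost in 4 of 8 fits (without healthy replicate 2 or 3 or tumor replicate 3 or 4) and that of Tagln in 5 of 8 (without healthy replicate 2 or 4 or tumor replicate 1, 2 or 3). Without healthy replicate 2 or tumor replicate 3, Myl9 alone was called. Mylk (0.33, adjusted p = 0.48), Actg2 (−0.59, adjusted p = 0.35), Synpo2 (−0.29, adjusted p = 0.91) and Myh11 (−0.26, adjusted p = 0.66) did not pass. Cnn1, Lmod1 and Des were below the filter, at 0.00634 to 0.212, 0 to 0.0181 and 0.000905 to 0.0107 RPKM over the 8 epithelial libraries.

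Of the wider contractile list, 34 genes were tested in epithelium. Of these 8 rose and 2 fell, with a median log2 difference of 0.60. Those that rose included Cacna1c, the pore of the L-type calcium channel (3.68, edgeR adjusted p = 0.0012), Cald1 (3.05, 0.020) and Pdlim7, an actin-linked LIM protein (3.03, 0.0050). Fhl1 (−3.97, edgeR adjusted p = 8.3e-05) and Kcnma1 (−2.51, 0.037) fell, as both did in the stroma. Markers of other cells were also read in the epithelial gate. Fibroblast markers summed to 0.128 to 3.12 RPKM in healthy and 0.702 to 2.42 RPKM in tumor epithelium, and pericyte markers to 0.392 to 0.697 and 1.06 to 1.52 RPKM. Leukocyte markers summed to 3.14 to 14.8 RPKM in healthy and 19.5 to 128.6 RPKM in tumor epithelium, and endothelial markers to 0.303 to 0.565 and 4.70 to 5.17 RPKM, neither list with overlap. By edgeR 0 of 8 leukocyte markers tested were called higher and 1 lower, with a median log2 difference of −1.57. Of 6 endothelial markers tested 1 was called higher, with a median of 0.20. The higher sums therefore do not stand for these lists as a whole. Of markers of activated fibroblasts, 4 of the 7 tested rose, and the summed level of the 10 genes went from 0.146 to 0.842 RPKM in healthy to 2.69 to 4.24 RPKM in tumor epithelium. The part of these cells in the higher Acta2 and Myl9 was not tested.

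**Figure D3:**
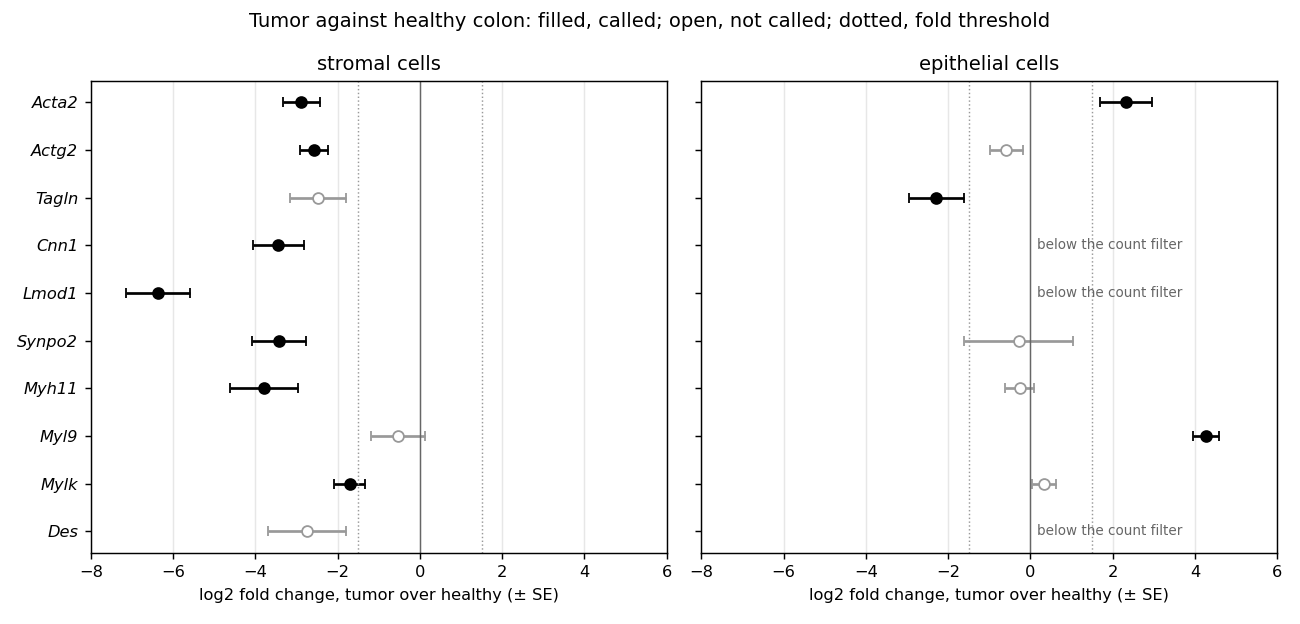
Log2 fold change of tumor over healthy colon (horizontal axis) with its SE for each gene, in stromal cells (left) and epithelial cells (right); filled points were called, open points were not, and dotted lines mark the fold threshold of 1.5. In stroma 7 genes are called lower, and in epithelium Myl9 (4.27) and Acta2 (2.32) lie to the right and Tagln (−2.28) to the left.

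Whether the 2 cell types differ in their response was tested directly, as an interaction over the 16 tissue libraries. Of the 7 genes that passed the filter in both cell types 5 were called, all more negative in stroma, beside 6.81% of all 20901 genes in that direction, 7.25% in the other and 14.1% in either. The difference of log2 differences was −5.23 for Acta2 (SE 0.78, edgeR adjusted p = 0.00052) and −4.81 for Myl9 (SE 0.79, edgeR adjusted p = 0.00098). It was −3.54 for Myh11, −2.04 for Mylk and −2.0 for Actg2. Tagln (−0.21, adjusted p = 0.92) and Synpo2 (−3.12, adjusted p = 0.20) did not pass. Cnn1, Lmod1 and Des entered this fit through the stroma, where they are high, so their values are a description: −4.49 for Cnn1, −2.57 for Des and −10.57 for Lmod1, the last of a size that depends on the prior count because healthy epithelial libraries were at or near 0.

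These 2 responses meet in the tumor stromal libraries that held epithelial RNA. Myl9 made up 68.4%, 66.9%, 26.7% and 19.6% of the summed RPKM of the 10 genes in tumor stromal replicates 1 to 4. The share was 67.8% to 72.2% in tumor epithelium and 10.8% to 21.7% in healthy stroma, so that replicates 1 and 2 resembled the former and replicates 3 and 4 came nearer the latter. Myl9 itself followed the same order, from 10.3 RPKM in the replicate with an epithelial level of 94.0% to 1.84 RPKM in that with 12.1%. The part of epithelial RNA in the Myl9 level of tumor stroma was not tested beyond the fits above.

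**Figure D4:**
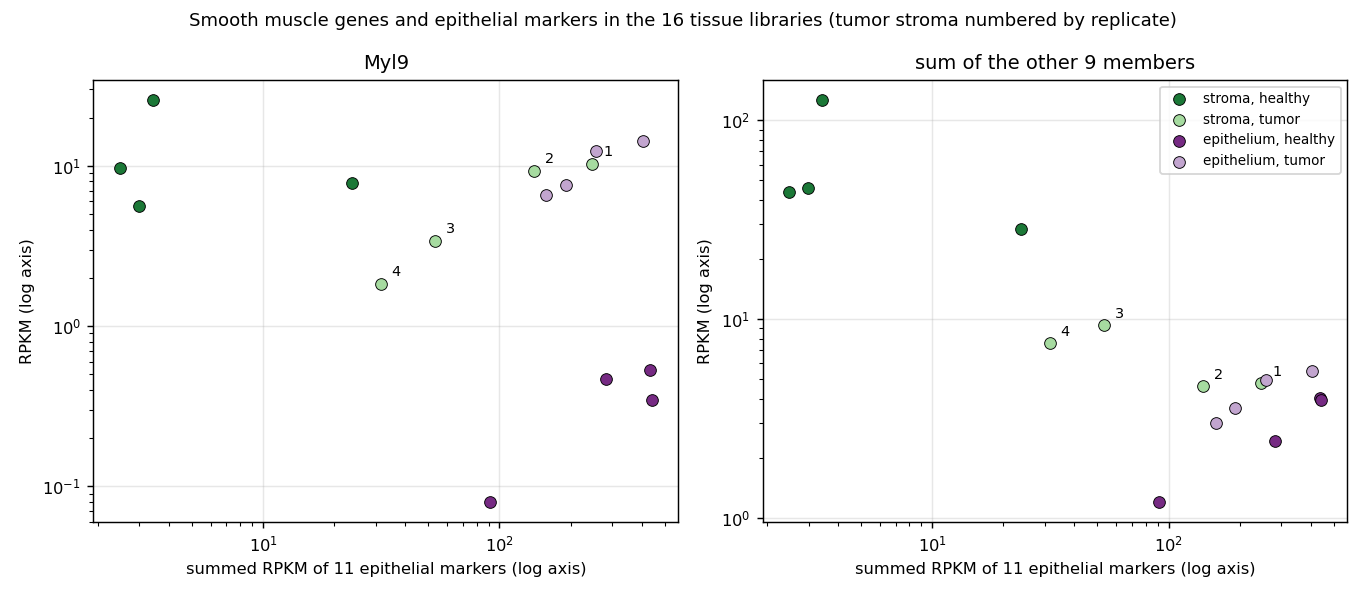
RPKM of Myl9 (left) and summed RPKM of the other 9 genes (right) against the summed RPKM of 11 epithelial markers, all axes logarithmic, in the 16 tissue libraries; numbers mark the tumor stromal replicates. Tumor stromal replicates 1 and 2 lie within the vertical range of tumor epithelium in both panels, and all 4 tumor stromal libraries lie below healthy stroma on the right.

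The third comparison sets stroma against epithelium within a tissue and bears on what the sort separated. In healthy colon 6 of the 7 genes that also passed the filter in epithelium were higher in stroma, beside 19.4% of genes called higher, 11.5% lower and 30.9% in either direction. Acta2 (6.01), Synpo2 (5.05) and Myh11 (4.95) had the largest fitted values among them, with edgeR adjusted p-values of 0.00026, 0.0010 and 0.00071. Cnn1 (4.37), Des (7.74) and Lmod1 passed the filter only through stroma, and their differences are a description. Rounded counts of Lmod1 were 0 in each healthy epithelial library, and against a floor of 3 counts over that group healthy stroma was at least 716-fold higher. Tagln was at 1.47 (SE 0.57, edgeR adjusted p = 0.068) and did not pass, and it passed without healthy epithelial replicate 4 (1.83, adjusted p = 0.037). Of the wider contractile list 31 of 48 genes were higher and 1, Gata6, was lower.

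In tumors the same contrast gave few calls for any gene. By edgeR 0 of the 8 genes tested were called, beside 0.0294% of all genes. At an unadjusted p below 0.05 there was 1 (Myh11, 1.41, SE 0.55), limma-voom called 0 and DESeq2 called 1, Des. With tumor stromal replicates 1 and 2 left out, which leaves replicates 3 and 4, 22.6% of all genes were called. Myh11 (1.96, edgeR adjusted p = 0.0028) was then higher in stroma and Myl9 was lower (−2.07, 0.0029). Des (5.96) was below the filter with all libraries and entered this fit through tumor stroma, where it is high. Its difference is a description. In that fit Acta2 (0.62, adjusted p = 0.40), Actg2 (0.34, 0.61) and Mylk (0.07, 0.91) did not pass, with SEs of 0.51, 0.46 and 0.40.

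In neutrophils and monocytes, 6 of the 10 genes passed the filter, and Cnn1, Lmod1, Synpo2 and Des did not. These cells held their own markers: Ptprc (CD45) ranged from 16.5 to 107 RPKM over the 24 libraries and from 0.0317 to 0.176 RPKM in epithelium. Between tumor and blood cells of tumor-bearing mice, 0 of 6 genes were called in neutrophils (background 16.3%, of which 11.9% higher and 4.41% lower) and 0 of 6 in monocytes (background 11.7%, of which 7.76% higher and 3.89% lower). None had an unadjusted p below 0.05, and limma-voom and DESeq2 called 0 in both. Tumor neutrophils were uneven: replicate 1 held 5.66 RPKM of Myl9 and 0.659 RPKM of Mylk, against 1.11 to 1.91 and 0.00945 to 0.253 RPKM in the others. The same library had an epithelial marker level of 71.9%, against 5.01% to 17.3% in the others. Leaving out tumor neutrophil replicate 2, the library with the least Mylk, called Mylk higher in tumors (2.19, edgeR adjusted p = 0.022), against 1.87 (adjusted p = 0.19) with all libraries.

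Mylk was the gene that differed between blood neutrophils of tumor-bearing and healthy mice, 1 of 6 tested beside 4.01% of all genes (2.22% lower). It was at 0.0254, 0.0876, 0.0824 and 0.0548 RPKM in tumor-bearing and at 0.883, 1.02, 0.182 and 0.167 RPKM in healthy mice. All tumor-bearing libraries lay below all healthy ones, with a log2 difference of −3.04 (SE 0.64, edgeR adjusted p = 0.022). The call was lost by limma-voom (adjusted p = 0.054), with a replicate block (adjusted p = 0.086) and in 4 of 8 fits that left out 1 library (tumor-bearing replicate 1, 2 or 4, or healthy replicate 2). The 2 healthy libraries with most Mylk also held platelet RNA: 6 platelet genes, a list chosen after these values were seen, summed to 224, 227, 1.78 and 10.2 RPKM in healthy replicates 1 to 4 and to 2.40 to 41.0 RPKM in tumor-bearing mice. Without healthy replicates 1 and 2, the difference was −1.58 (adjusted p = 0.16). In blood monocytes Mylk was at 0.374, 0.420, 0.201 and 0.0128 RPKM in healthy replicates 1 to 4, where the platelet genes summed to 109, 109, 114 and 1.62 RPKM, and at 0.0206 to 0.0654 RPKM in tumor-bearing mice. By edgeR 0 of 6 genes were called there, beside 0.209% of all genes (0.0914% higher and 0.118% lower). At an unadjusted p below 0.05 there was 1 (Mylk, −2.51, adjusted p = 0.33), limma-voom called 0 and DESeq2 called 1, also Mylk. Myl9 in healthy monocytes, at 3.16, 5.90, 2.06 and 0.622 RPKM, was likewise lowest in the library with least platelet RNA. The part of platelets in these values was not tested further.

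Actins and myosins are close relatives, and reads can be shared between them. Outside the stroma Actg2 kept to a fixed share of Actb, the cytoplasmic beta-actin: the ratio was 4.63% to 7.70% (median 6.29%) over 32 libraries. In the 8 stromal libraries it ranged from 6.27% to 85.2%, with its low end in tumor stroma. Replicates 1 to 4 there held 0.715, 0.531, 0.719 and 0.925 RPKM of Actg2 beside 11.4, 8.09, 10.0 and 9.92 RPKM of Actb. Pearson's r of the 2 genes was 0.96 over those 32 libraries, which share depth and preparation, and −0.11 over the 8 stromal ones. Myh11 was at 3.52% to 8.88% of Myh9, the nonmuscle myosin heavy chain, outside the stroma and at 6.56% to 399% in it. Tumor stroma was again at the low end, with 0.360, 0.328, 1.82 and 1.23 RPKM of Myh11 beside 5.49, 3.83, 11.4 and 10.9 RPKM of Myh9. A fixed share of this kind was not seen for Acta2, at 1.11% to 20.7% of Actb outside the stroma. In the annotated transcripts, 0.866% of the 30-base words of Myh11 also occur in Myh9, whereas 0% of those of Actg2 and 0.831% of those of Acta2 occur in Actb and 1.46% of those of Actg2 occur in any other gene. Low Actg2 and Myh11 values outside the stroma and in tumor stroma are therefore uncertain. So is the size of their difference between tumor and healthy stroma. The deposited expected counts do not say how shared reads were divided. Tagln overlaps Pcsk7 on the opposite strand (chr9:45929619-45936058, mm10), and without a stated strand setting reads of the 2 genes cannot be told apart.

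**Figure D5:**
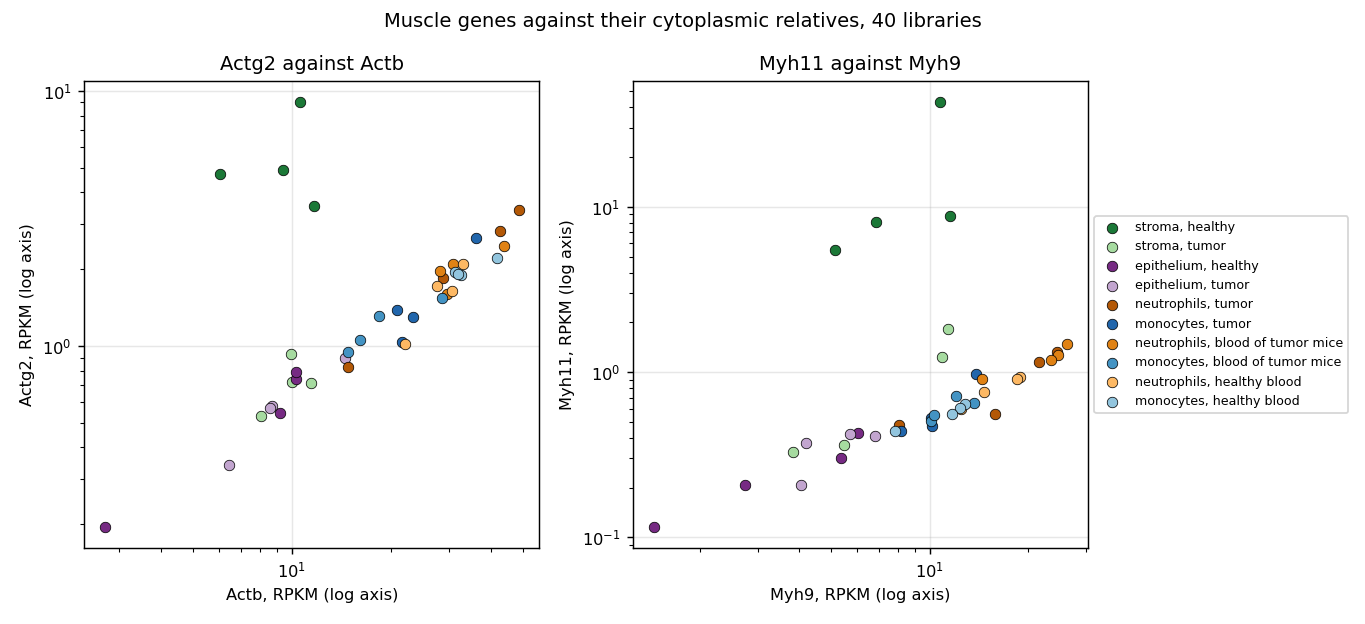
RPKM of Actg2 against Actb (left) and of Myh11 against Myh9 (right), all axes logarithmic, in the 40 libraries coloured by group. Libraries outside the stroma lie along a line (4.63% to 7.70% for Actg2 and 3.52% to 8.88% for Myh11), and healthy stroma lies far above it. Tumor stroma lies on that line or between it and healthy stroma.

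Of the 4 other actin genes, 1 fell in the stroma. Actc1, cardiac actin, fell by 2.98 on the log2 scale (SE 0.61, edgeR adjusted p = 0.020). Acta1, the skeletal muscle actin, was at −0.81 (adjusted p = 0.14), Actb at 0.43 (adjusted p = 0.31) and Actg1, cytoplasmic gamma-actin, at 0.58 (adjusted p = 0.21). The last 3 did not pass, so edgeR called 3 of the 6 actin genes lower in tumor stroma. Of the 4 other actin genes limma-voom called 0 and DESeq2 called 1, and 2 had an unadjusted p below 0.05 by edgeR. Acta1 was negative in all 19 recomputed fits (−1.01 to −0.67).

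Correlation among the members followed the difference between healthy and tumor stroma. Over the 8 stromal libraries, the correlation of each gene's log2(RPKM + 1) with the mean of the other 9 was 0.95 to 0.98 for 9 genes and 0.58 for Myl9, a description that carries the difference between the groups. Within the 4 tumor libraries the genes did not move as 1: Myl9 and Cnn1 ran against the others there, Cnn1 lowest in replicate 3, where Mylk, Tagln, Myh11, Synpo2 and Des were highest. Over all 40 libraries it was 0.53 for Myl9, 0.68 for Actg2 and 0.78 to 0.95 for the others. Among 6994 other genes that reached 5 RPKM in some library, those most like the mean of the 10 over 40 libraries included Tpm2 (r = 0.95), the potassium channel gene Kcna1, the adhesion molecule gene Chl1, Rarres2, Gfra2, Cyp26b1, the matrix gene Tnc, Atp1b2 and Gucy1a1 (r = 0.92), a chain of the nitric oxide receptor of smooth muscle. Over the 8 stromal libraries they were Kcna1, Tpm2, Dnajc14, Chl1, Hexim1, Impdh2, Ccny, Gm7897, Nr3c2 and Rpl41 (r from 0.97 to 0.96). Tpm2, Kcna1 and Chl1 stood in both lists. The fibroblast gene Dcn ranked 131 and the pericyte gene Rgs5 254 over the 40 libraries, and Srf ranked 2119 (r = 0.25).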

How the data were processed

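Per the labels and the study's methods, RNA of 40 sorted samples was amplified (NuGEN Ovation V2), sequenced, demultiplexed with bcl2fastq, mapped to mm10 with Bowtie 2 and counted per gene with HTSstation. The authors deposited expected counts, of which 99.6% of values above 0 are not whole, and RPKM values, whose divisor was not given in the sources used here. The annotation and strand setting were not given either.

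RPKM values were used as deposited for levels (mean ± SD, n = 4 libraries). Expected counts were rounded and tested with edgeR 4.0.16 in R 4.3.3 (robust quasi-likelihood, TMM, filterByExpr, group only), with Benjamini-Hochberg adjustment over all genes kept and calls where adjusted p was under 0.05 and the log2 difference exceeded 1.5 in size, as in the study's methods. The fit was tested on simulated data. Every count of called members was recomputed by DESeq2 1.42.0, by voom in limma 3.58.1, with RLE factors, with no filter and without mitochondrial genes. Further fits used all 40 libraries at once, limma on log2(RPKM + 1), a replicate block, and fewer libraries. An epithelial covariate was added for tumor against healthy stroma alone. The count of genes highest in healthy stroma was recomputed on nuclear genes and leaving out libraries. Intervals were not computed, since amplified reads are not independent molecules. Of 45706 genes, 45143 matched a symbol (GENCODE vM21), and promoter sequences are from RefSeq.

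The 10 genes and all gene lists were chosen with earlier results of these data known. Named genes were the 10 members, the contractile genes called in stroma, 4 transcriptional regulators, 4 actin paralogs and the 10 genes most correlated with the members. Epithelial and interaction examples, platelet genes, Ptprc, Dcn, Rgs5, Myh9 and Pcsk7 were named after their values were seen. A few items from these lists are not reported here.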

Additional observations from a re-analysis of the deposited data

Results flagged for a closer look

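In 17 of 100 groups of 4 libraries, 1 library stood apart by Dixon's ratio (the gap to its neighbour over the whole range, set against its 95% critical value). Chance gives about 1 in 20 for independent groups of normally distributed values. RPKM was not log-transformed here, the genes share libraries, and each library that stood apart was the highest of its 4. The 17 are therefore not read as an excess. Healthy stromal replicate 1 stood apart, as the highest library, for 6 genes: Tagln (0.871), Cnn1 (0.832), Lmod1 (0.899), Synpo2 (0.844), Myh11 (0.912) and Des (0.879). It held 152.7 RPKM of the 10 genes against 36.3 to 53.4 RPKM in the other healthy stromal libraries. Mylk stood apart in tumor stromal replicate 3 (0.904), at 2.16 RPKM. In the other groups most levels were very low. Lmod1 stood apart in healthy epithelial replicate 1 (0.864), in tumor-bearing blood neutrophil replicate 4 (0.915), in tumor-bearing blood monocyte replicate 1 (0.959) and in healthy blood monocyte replicate 4 (0.88). Synpo2 did so in tumor epithelial replicate 2 (0.883), tumor monocyte replicate 2 (0.971) and tumor-bearing blood neutrophil replicate 4 (0.957). Des stood apart in tumor neutrophil replicate 1 (0.992), the library with the highest epithelial level of its group, Myl9 in tumor monocyte replicate 3 (0.871), and Actg2 in healthy blood monocyte replicate 1 (0.875).

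The interaction test (edgeR) flagged 7 genes, beside 14.1% of all genes in either direction and 6.81% more negative in stroma. The differences of log2 fold changes, stromal minus epithelial, were −5.23 for Acta2, −2.0 for Actg2, −3.54 for Myh11, −4.81 for Myl9 and −2.04 for Mylk. Cnn1 (−4.49) and Lmod1 (−10.6) entered this fit through the stroma, where they are high, so their values are a description.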

How the results depend on the processing

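Among recomputed counts of called members, 188 stayed within 1.5 times the main count and 19 did not. In the stroma the 7 calls became 4 by limma on log2(RPKM + 1), 4 without the 2 epithelium-rich libraries and 1 with the epithelial covariate. With 1 library left out they were 5 to 7. The counts without the epithelium-rich libraries and with the covariate include Lmod1, which passed the filter through healthy stroma. In the covariate fit, epithelial level and group are hard to tell apart. In the epithelium the 3 calls became 1 on log2(RPKM + 1) and 1 to 3 with 1 library left out. Between stroma and epithelium of tumors the 0 calls became 1 by DESeq2, 1 with all 40 libraries in 1 fit and 3 without the epithelium-rich libraries. The last count includes Des, which entered that fit through tumor stroma. In healthy colon the count was 9 to 10 and in the interaction 7 to 7 with 1 library left out. Both counts include genes that passed the filter through stroma alone. Tumor against blood neutrophils gave 0 to 1 with 1 library left out. In blood neutrophils the 1 call became 0 by limma-voom, on log2(RPKM + 1), with the replicate block and without the 2 platelet-rich libraries (an alternative chosen after seeing the data), and 0 to 1 with 1 library left out. In blood monocytes DESeq2 gave 1. The causes of these changes were not tested.

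Same-numbered libraries did not deviate together (correlations of −0.13 to 0.24), so the label numbers, 1 of which is given to 2 tumor stromal libraries, were not taken to pair the samples. Animals named in the titles cross groups in part, and a random block by animal, run for stroma against epithelium of tumors alone, called 0 genes. The replicate block left 7 calls in the stroma, 3 in the epithelium and 0 between stroma and epithelium of tumors.

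Of the recomputed log2 fold changes, 1078 kept direction and call, 118 lost the call, 10 gained it and 35 changed sign, and 0 of these 35 passed the threshold with the changed sign. In the stroma these were Myl9 (−0.90 to 0.052 with 1 library left out), Gata6 (−0.18), Srf (−0.88), Mrtfb (1.02) and Actb (−0.16) with the epithelial covariate, and Srf (−0.41) and Mrtfb (0.17) without the epithelium-rich libraries. In the epithelium they were Actg2 (0.034), Synpo2 (0.0033) and Myh11 (0.10) on log2(RPKM + 1), with Synpo2 at −2.83 to 0.29 and Myh11 at −0.39 to 0.0059 with 1 library left out. Between stroma and epithelium of tumors they were Cnn1 (0.35 with the block, −0.68 to 0.22 with 1 library left out) and Mylk, at 0.11 by limma-voom, 0.0042 with RLE factors, 0.0017 without mitochondrial genes, 0.027 on log2(RPKM + 1), 0.073 without the epithelium-rich libraries, 0.070 with the animal as a random block and −0.25 to 0.19 with 1 library left out. In the interaction Tagln was at 0.080 with the block and at −0.61 to 0.45 with 1 library left out.

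With 4 libraries a group, values of a few counts, such as Lmod1, Des and Cnn1 outside healthy stroma, are limited by depth.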
